A study of Mus musculus with 35 samples.

Results

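The comparison asked what remained different from the series' control libraries once the fusion gene NUP98-NSD1 had been switched off for 5 days in transplanted mice. It set the 3 RNA libraries titled NUP98-NSD1 day 5 doxycycline against the 3 titled control, chosen by their titles, which makes 6 of the 33 RNA libraries among the 35 samples of the series. Per the labels, all 6 came from bone marrow of transplanted C57BL/6 mice, sorted for GFP and CD45.2. The day 5 group carried a regulatable NUP98/NSD1 and had received doxycycline, which represses the fusion, at 4 mg/ml for 5 days. The controls had received none. Their genotype labels list all 3 fusions of the series, with a different DDX gene name in each of the 3 labels, so what the control cells carried cannot be told from them. Further NUP98-NSD1 libraries (4 untreated and 3 of day 3) and the day 5 libraries of the fusions NUP98-DDX10 and NUP98-JARID1A (3 each) are given for reference. The labels do not say that libraries of a group came from separate animals or separate leukemias, so every p-value reflects only how much these samples spread, which may be technical.

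NUP98 is a protein of the nuclear pore, and its leukemia fusions join its first part to the end of another protein, here the histone methyltransferase NSD1. Cells with such fusions are known for keeping genes of the HOXA and HOXB clusters and MEIS1 on, which encode transcription factors of blood progenitors and are normally turned down as progenitors become neutrophils or monocytes. Sorted normal marrow holds those mature cells beside lymphoid and erythroid ones.

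Values are normalized counts (each library's reads over its own size factor), so they compare libraries for 1 gene and not 1 gene with another. Differences are log2(normalized count + 1), day 5 minus control, with the standard error after ±. The adjusted p-values come from limma with Benjamini-Hochberg adjustment over all 12015 genes that reached a value of 10 in 3 or more of the 6 libraries. A gene is called higher or lower at an adjusted p under 0.05.

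The libraries held 14754904 to 17697724 reads at day 5 and 12043519 to 17514179 in the controls. The NUP98-NSD1 construct had 58.1, 40.9 and 40.3 in the day 5 libraries, 0 in each control and 52599 to 58498 in the untreated libraries of the fusion. The eGFP construct had 19.4, 11.4 and 19.7 at day 5 and 13.9, 210.3 and 14.3 in the controls, against 15335 to 17735 untreated, although the label of all of them names a sort for GFP. Luciferase had 2381, 1535 and 1615 at day 5 and 473, 9.14 and 9.09 in the controls. The pan-leukocyte gene Ptprc, which encodes CD45, had 9419.5, 12265 and 10682 at day 5 and 31017, 27688 and 24245 in the controls (-1.36 ± 0.19, adjusted p = 0.00304). Control 3 stood apart: on the log2 scale across genes, which are not replicates, it correlated with controls 1 and 2 at 0.895 and 0.899, against 0.989 between those and 0.976 to 0.988 among the day 5 libraries. B cell genes took 2.08% of its normalized counts and erythroid genes 1.15%, against 0.258% and 0.331%, and 0.126% and 0.175%, in controls 1 and 2. Neutrophil genes took 2.35% of it, against 18.5% and 20%. Results that rest on it are therefore given with and without it. In bulk RNA of sorted marrow, fewer cells of a type and less RNA per cell cannot be told apart, and this holds for each result that follows.

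In all, 1971 genes (16.4%) were higher at day 5 than in the controls and 2447 (20.4%) were lower, so 36.8% of the genes tested were called. Of these, 960 were at least 2-fold higher and 1754 at least 2-fold lower. The median difference over all genes tested was -0.05. The groups did not overlap for 54.7% of the genes, with day 5 above for 25.5% and below for 29.2%. These are the shares against which the counts of gene lists below are set. Which libraries entered changed the size of the counts: without control 3, with the filter met in at least 2 libraries, 3301 genes (26.8%) were higher and 4024 (32.7%) lower, 59.5% in all. Without control 1 the counts were 1365 and 1167 and without control 2 they were 1134 and 1013. Without day 5 library 1, 2 or 3 they were 1186 and 1730, 1068 and 1698, and 851 and 1493. Of the genes called, 44.6% were higher, and after quantile normalization, which raised the median difference of all genes by 0.19, 61.2% were (2727 higher and 1729 lower).

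**Figure D1:**
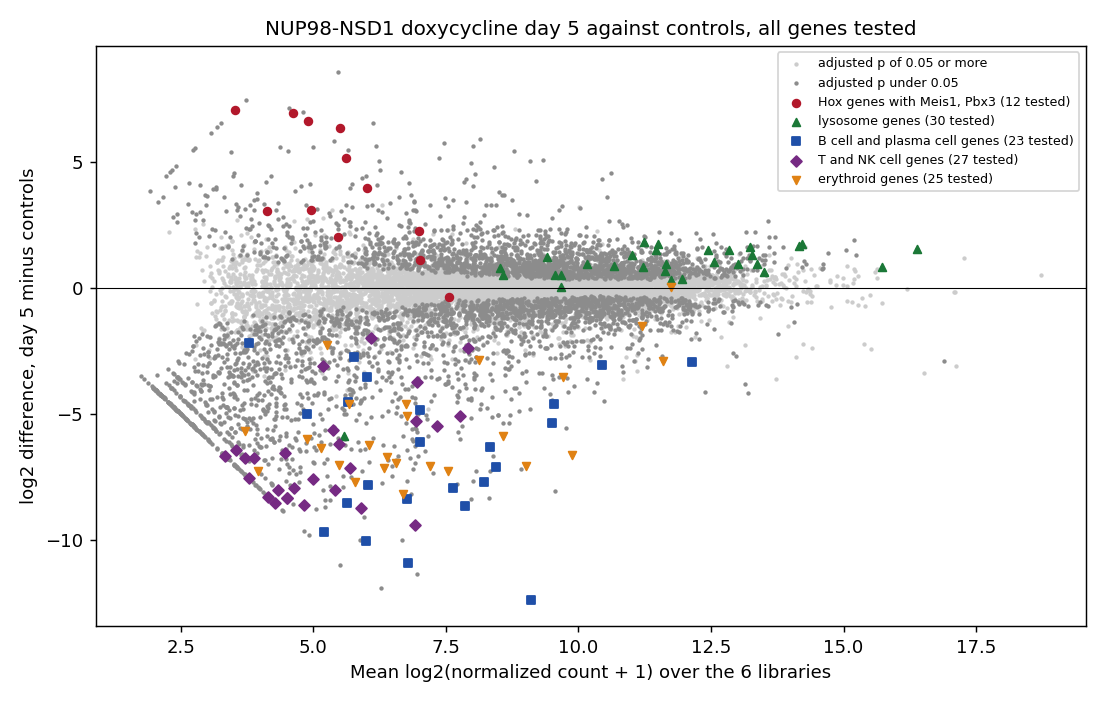
Each point is 1 of the genes tested, with its mean log2(normalized count + 1) over the 6 libraries on the x axis and its log2 difference, day 5 minus controls, on the y axis. Genes with an adjusted p under 0.05 are dark grey, and 5 gene lists are coloured. B cell and T and NK cell genes all lie below 0, erythroid genes do except 1 near 0, and Hox and lysosome genes lie mostly above it.

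Homeobox genes of the Hoxa and Hoxb clusters were still higher than in the controls after 5 days without the fusion. Hoxa10 (GRCm38 chromosome 6, 52231197 to 52240854), a regulator of progenitor growth, had 310.0, 305 and 277 normalized counts in the day 5 libraries and 2.52, 1.14 and 2.60 in the controls, a difference of 6.63 ± 0.31 (adjusted p = 0.000235). Each control value stands for 1 or 2 reads, and every day 5 value lay far above all of them. Hoxb5 had 105, 117 and 180.0 at day 5 and no read in any control, which makes it at least 36.2-fold higher, with a floor of 3 reads per control library. Hoxa10 and Hoxb5 passed the filter only through the day 5 libraries, so they could only be higher.

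Hoxb2 had 392, 421 and 414 against 1.26, 14.9 and 2.60 (6.34 ± 0.71, adjusted p = 0.00146). Hoxa7 had 282, 233 and 243 against 21.5, 21.7 and 7.79 (3.94 ± 0.42, adjusted p = 0.00123). Day 5 lay above the controls in every library for both. Hoxa9, whose product works with MEIS1 in leukemia cells, had 354, 242 and 290.2 against 16.4, 32.0 and 0 (5.14 ± 1.25, adjusted p = 0.0211). Its zero in control 3 widened its spread: without that library the difference was 3.61 (adjusted p = 0.000386), while its call was lost without any one of the day 5 libraries (adjusted p = 0.0637 to 0.0726). Hoxb3 (72.1, 89.4 and 102 against 31.6, 36.6 and 7.79, 2.0 ± 0.58, adjusted p = 0.0386) and Hoxb4 (182, 190.3 and 191 against 89.6, 129 and 55.8, 1.11 ± 0.32, adjusted p = 0.0381) were nearer to the controls. Hoxb3 lost its call without control 1, control 2 or any day 5 library (adjusted p = 0.0505 to 0.126) and Hoxb4 without control 1 or any day 5 library (0.091 to 0.121).

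The cofactor gene Meis1 had 246, 276 and 309.9 at day 5 and 114, 149.7 and 10.4 in the controls, and did not pass the test (2.25 ± 0.95, adjusted p = 0.11). Without control 3, where it was low, it did (1.08, adjusted p = 0.00387). Hoxa3 (3.06, adjusted p = 0.0724) and Hoxa5 (3.08, adjusted p = 0.126) followed the same course, each with 0 in control 3, and gave 1.76 (adjusted p = 0.0113) and 1.37 (adjusted p = 0.00237) without it. Pbx3, another cofactor gene, had 181, 155 and 159 against 177, 169 and 317 (-0.36, adjusted p = 0.351), and the groups overlapped.

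Of the 22 genes of the list, 12 passed the filter on low values. Of these, 3, Hoxa10 and Hoxb5 among them, passed only through the day 5 libraries and so could only be higher. In all, 8 were called higher and 0 lower, with a median of 3.51. Without control 3 the counts were 11 and 0 and the median 2.62. Without any one of the day 5 libraries, 2 of the 9 genes then tested were called. The genes present only at day 5 no longer met the filter, and Hoxa9, Hoxb3 and Hoxb4 were still tested but lost their calls. Day 5 lay above all controls for 11 of the 12, against 25.5% of all genes. The untreated libraries held more of most of these genes: the list summed to 0.0470% to 0.0521% of an untreated library, 0.0165%, 0.0145% and 0.0159% of the day 5 libraries, and 0.00262%, 0.00309% and 0.00264% of the controls. Hoxb4, with 179.5 to 238 untreated, was about as high at day 5 as before doxycycline. The Hoxa and Hoxb genes lie close together and partly overlap with antisense transcripts, and the use of strand in counting is not given in the sources used here, so single members are uncertain.

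**Figure D2:**
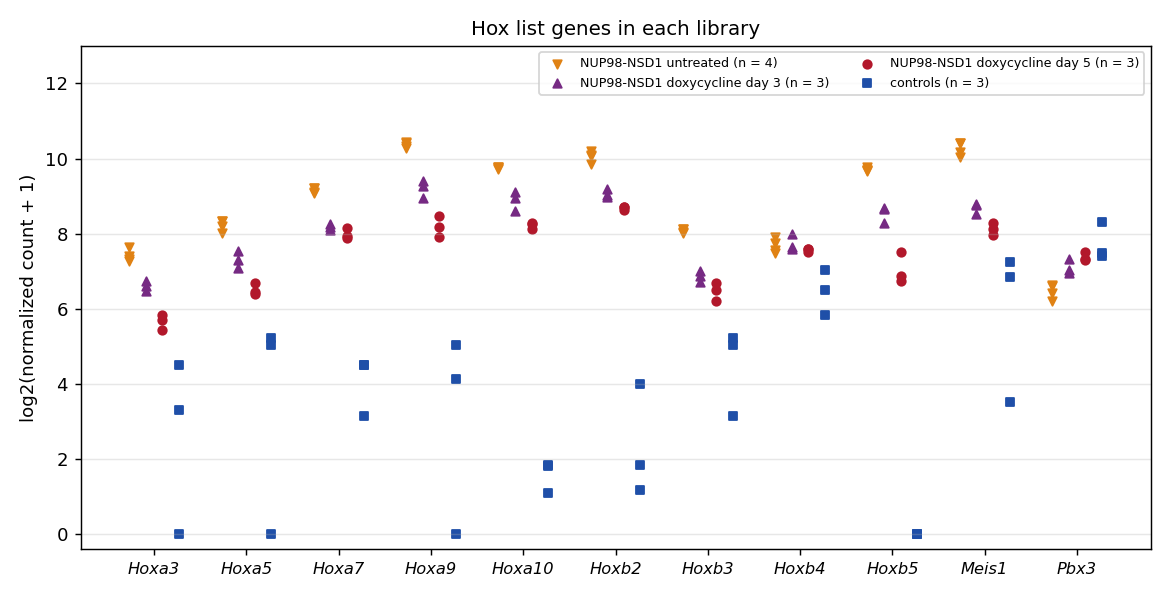
Points are single libraries on a log2(normalized count + 1) axis for 11 Hox list genes, with untreated NUP98-NSD1 libraries (n = 4), day 3 (n = 3), day 5 (n = 3) and controls (n = 3) side by side. Day 5 lies above every control for each gene but Pbx3, and below the untreated libraries for most.

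The series title names CDK6, a kinase that drives cells from G1 towards S phase, as a direct target of the fusions. Cdk6 (chromosome 5, 3341004 to 3531008) had 7386, 4309 and 4399 normalized counts at day 5, 3779, 3650.3 and 1236 in the controls and 18426 to 21713 untreated. Each day 5 library lay above each control, but the difference did not pass the test (1.01 ± 0.47, adjusted p = 0.141), and without control 3, which was lowest, it was 0.48 (adjusted p = 0.134). Its relative Cdk4 differed, with 4001, 3958 and 4088 against 2149.8, 2000.0 and 2099 (0.95 ± 0.10, adjusted p = 0.00121).

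Among the cyclin-dependent kinase inhibitor genes, Cdkn1a and Cdkn1b went in opposite directions. Cdkn1a, which encodes p21, had 1614, 1476 and 1655 at day 5 and 346, 303 and 293 in the controls (2.33 ± 0.13, adjusted p = 0.000239). Cdkn1b, which encodes p27, had 883, 1089.5 and 1033 against 1928, 2139 and 1671 (-0.93 ± 0.15, adjusted p = 0.00454). Values within each group lay close together and the groups did not overlap for either gene. The D-type cyclin gene Ccnd2 was higher (0.99 ± 0.17, adjusted p = 0.00616). Of the 18 G1 genes tested, 6 were higher and 2 lower (median 0.01), against 16.4% and 20.4% of all genes. Without control 3 there were 7 and 3. Of the mouse genes that correspond to the fusion parts, Nsd1 (2394, 2646 and 2308 against 3927, 4058 and 6206, -0.92, adjusted p = 0.0144) and the histone demethylase gene Kdm5a (-0.82, adjusted p = 0.0121) were lower, while Nup98 (-0.06, adjusted p = 0.771) and Ddx10 (0.19, adjusted p = 0.364) did not pass the test. Nsd1 lost its call without day 5 library 1 or 3 (adjusted p = 0.0544 and 0.065) and Kdm5a without library 3 (0.0597).

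Receptor genes of monocytes and macrophages were higher at day 5. Csf1r, the receptor for the growth factor M-CSF, had 14688, 24026 and 21743 normalized counts at day 5 and 4697, 4346 and 3679 in the controls (2.22 ± 0.22, adjusted p = 0.00105). Cd163, a scavenger receptor gene of macrophages, had 1496, 3644 and 3064 against 168, 154 and 92.2 (4.25 ± 0.39, adjusted p = 0.000824), and Cd14, the co-receptor for bacterial lipopolysaccharide, 2555, 2678 and 2364 against 300.4, 501 and 126 (3.24 ± 0.47, adjusted p = 0.00363). For all 3 genes every day 5 library exceeded every control, and the smallest gap between the groups was that of Csf1r. The chemokine receptor gene Cx3cr1 (7037, 14646 and 10104 against 2718, 1966 and 2141, 2.17, adjusted p = 0.00262) and Adgre1, which encodes F4/80 (4195, 5658 and 4858 against 1609, 1034 and 997, 2.04, adjusted p = 0.00136), shared this pattern.

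Other genes of macrophages were far lower at day 5. Apoe, which encodes a lipid carrier, had 161, 96.1 and 88.5 against 1649.9, 1882 and 2582 (-4.16 ± 0.29, adjusted p = 0.000378). Vcam1, an adhesion molecule gene of resident macrophages and stroma, had 7.53, 14.3 and 4.92 against 696, 835 and 554 (-6.23 ± 0.39, adjusted p = 0.00034). Both were low before doxycycline, at 25.9 to 54.4 and 4.69 to 9.83 in the untreated libraries. Fn1, for fibronectin, had 15447, 967 and 957 at day 5 and 42623, 40546 and 22440.3 in the controls (-3.80 ± 1.09, adjusted p = 0.036). Day 5 library 1 thus lay much nearer the controls than libraries 2 and 3, and the call was lost without control 1, control 2, or day 5 library 2 or 3 (adjusted p = 0.103 to 0.118).

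Of the 35 monocyte and macrophage genes, all tested, 14 were higher and 8 lower, against 16.4% and 20.4% of all genes, with a median of 1.18. Without control 3 there were 21 and 9 (median 1.02), and without day 5 library 3 there were 9 and 5. The list summed to 1.49%, 1.27% and 1.33% of the day 5 libraries, 0.837%, 0.718% and 0.598% of the controls, and 1.04% to 1.13% of the untreated ones.

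Among 27 transcription factor genes of myeloid cells, 8 were higher and 4 lower (median 0.22), against 16.4% and 20.4% of all genes. Bcl6, a repressor gene, had 1319, 1142 and 1231 against 4383, 4735 and 4236 (-1.86 ± 0.11, adjusted p = 0.000305), and Egr1, an immediate early gene, 72.1, 72.3 and 82.6 against 872, 1537 and 535 (-3.55 ± 0.38, adjusted p = 0.00124). Vdr, the vitamin D receptor gene, had 252, 317 and 340.4 against 60.6, 46.9 and 18.2 (2.97 ± 0.45, adjusted p = 0.00425) and 783 to 1098 untreated. The count of lower genes was 9 without control 3, 2 after quantile normalization and 2 without any one of the day 5 libraries. Among 26 cytokine receptor genes, 7 were higher and 4 lower (median 0.40), and 7 and 9 without control 3, while without control 1 or control 2 there were 2 lower. The interferon gamma receptor gene Ifngr1 was higher (1.10 ± 0.12, adjusted p = 0.00131) and the IL-33 receptor gene Il1rl1 lower (-2.45 ± 0.31, adjusted p = 0.00224). The IL-7 receptor gene Il7r, which lymphoid cells use, was lower too (12.9, 40.9 and 23.6 against 1312, 1515 and 628, -5.47 ± 0.50, adjusted p = 0.00082).

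Genes of the lysosome, the organelle that digests what a phagocyte takes up, were higher at day 5 as a group. Ctsz, a cathepsin protease gene, had 4496, 6246 and 5372 against 1683, 1515 and 1572 (1.74 ± 0.15, adjusted p = 0.00066). Gusb, for beta-glucuronidase, had 4863, 4271 and 4615 against 1582, 1328 and 1006 (1.83 ± 0.18, adjusted p = 0.00103), and Scarb2, for a lysosomal membrane protein, 3540.3, 3329 and 2944 against 1463, 1261 and 1215 (1.32 ± 0.13, adjusted p = 0.001). Each of the 3 lay well apart from the controls in every library. The protease gene Ctsa had 14894, 18667 and 17256 against 5053, 4709 and 6801 (1.63 ± 0.19, adjusted p = 0.00174), and Ctsd 11829.6, 12151 and 10375 against 6928, 7717 and 4097 (0.92 ± 0.26, adjusted p = 0.0333). The smaller difference of Ctsd lost its call without control 1 or any one of the day 5 libraries (adjusted p = 0.0626 to 0.106).

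Of the 30 lysosome genes tested, 20 were higher and 1 lower (median 0.95), against 16.4% and 20.4% of all genes. Without control 3 there were 22 and 1 (median 0.86). Day 5 lay above all controls for 24 of the 30, against 25.5% of all genes. The lower one was Cd63, a gene of granules as well, with 9.69, 2.85 and 4.92 against 519, 779 and 123 (-5.89 ± 0.75, adjusted p = 0.00237). Cd63 passed the filter only through the controls, so it could only be lower. The list summed to 2.44%, 2.80% and 2.78% of the day 5 libraries, 1.09%, 1.0% and 0.926% of the controls and 2.35% to 2.41% of the untreated ones, so its share was high before doxycycline as well.

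**Figure D3:**
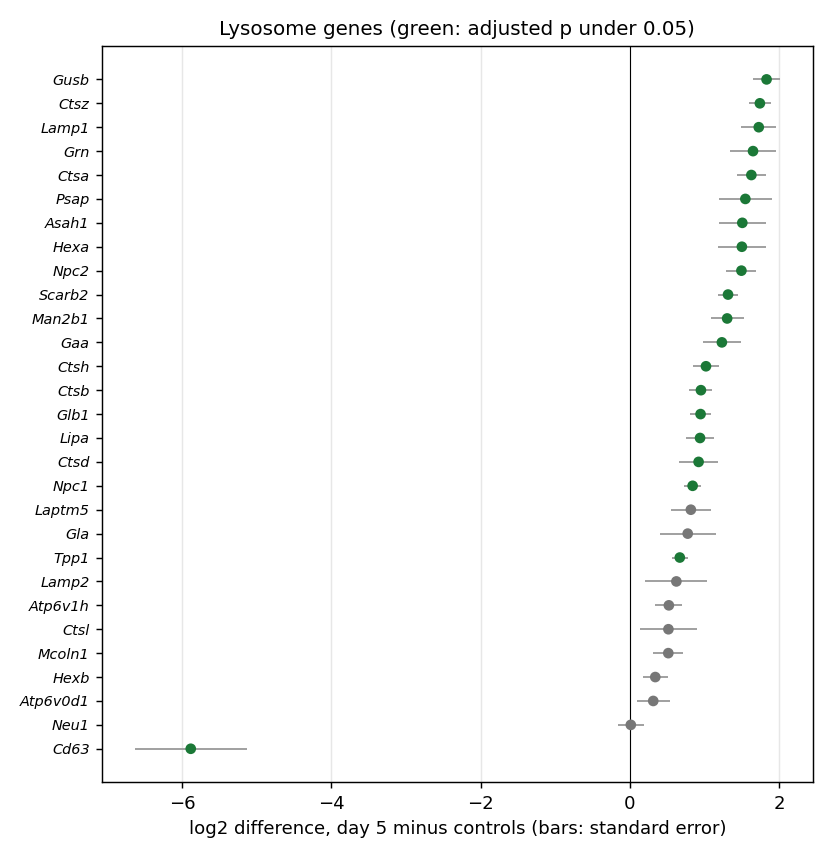
The x axis gives the log2 difference, day 5 minus controls (3 libraries each), of 29 lysosome genes, with standard errors as bars. Green points passed the test and grey points did not. All green points but Cd63, at -5.89, lie above 0.

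The upstream sequences of Ctsa and Ctsd are shown because both hold the palindrome TCACGTGA, the core of the element that the lysosomal regulator TFEB is known to bind. It was searched on both strands in the 250 bases before the RefSeq start of each gene (GRCm38.p6), and it is in capitals, 5′ to 3′ on the gene's strand. The stretch of Ctsa is chr2:164833523-164833772 (plus strand) and that of Ctsd is chr7:142387828-142388077 (minus strand).
Ctsa: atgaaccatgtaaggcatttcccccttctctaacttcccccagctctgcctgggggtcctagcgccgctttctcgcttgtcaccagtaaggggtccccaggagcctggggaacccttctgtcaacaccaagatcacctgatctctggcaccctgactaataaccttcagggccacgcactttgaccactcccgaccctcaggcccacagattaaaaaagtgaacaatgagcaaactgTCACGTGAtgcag
Ctsd: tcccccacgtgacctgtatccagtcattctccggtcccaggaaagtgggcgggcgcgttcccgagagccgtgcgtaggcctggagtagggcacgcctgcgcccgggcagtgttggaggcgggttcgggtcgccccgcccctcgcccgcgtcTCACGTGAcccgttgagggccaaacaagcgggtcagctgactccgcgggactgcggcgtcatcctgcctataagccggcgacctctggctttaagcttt
Of the 30 lysosome genes 23 matched a RefSeq promoter, and 4 of them held the palindrome (Ctsa, Ctsd, Gla and Mcoln1), against 0.907% of 27025 genes. Among the 16 called lysosome genes with a promoter, 2 held it, Ctsa and Ctsd, while Gla and Mcoln1 were not called. The motif was chosen with results of these data known, and a match is a description of letters, not of binding.

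Among all genes, the largest differences above the controls included genes of lipid mediators and cysteine protease inhibitors. Hpgd (chromosome 8, 56294552 to 56321046), which encodes the enzyme that inactivates prostaglandins, had 6694, 8736 and 7585 at day 5 and 377, 402 and 218 in the controls (4.57 ± 0.26, adjusted p = 0.00026). Mt1, a metallothionein gene, had 4859.9, 3169.6 and 3713 against 592, 635 and 604 (2.66 ± 0.17, adjusted p = 0.00036) with 7062 to 8744 untreated, and Nt5dc2 2707, 2081 and 2199 against 299, 288 and 225 (3.10 ± 0.17, adjusted p = 0.00026). The 3 controls of these genes lay close together, in contrast to those of the stefin genes.

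Cstdc5 had 2617, 3716 and 3113 against 231, 194 and 18.2 (5.03 ± 0.93, adjusted p = 0.0082), Stfa2 1717, 4603 and 2993 against 218, 286 and 3.89 (5.41 ± 1.54, adjusted p = 0.0353) and Stfa3 2370.2, 5501 and 3979.7 against 337, 363 and 10.4 (5.06 ± 1.34, adjusted p = 0.028). All 3 were lowest in control 3, and without it the differences were 3.87, 3.52 and 3.41. Stfa2 lost its call without control 1 or any day 5 library (adjusted p = 0.0521 to 0.11), and Stfa3 without any day 5 library (0.0685 to 0.0918). These genes are near-identical copies that can share reads, so the split among them is uncertain. The other large differences were Abca9, a lipid transporter gene (3.58 ± 0.31), the tubulin gene Tubb6 (3.49 ± 0.30), the nucleotide receptor gene P2ry6 (3.15 ± 0.31), Frmd4b (2.91 ± 0.26), the caveolin gene Cav2 (2.88 ± 0.24), the membrane repair gene Myof (2.76 ± 0.21), Rgs10 (2.49 ± 0.17) and Zfp385a (2.43 ± 0.16). Each of these 8 had an adjusted p of 0.000976 or less, and none lost its call when 1 library was left out.

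On the lower side, Plbd1 (chromosome 6, 136612071 to 136662303) encodes a phospholipase B-like protein of neutrophil granules. It had 46.3, 45.7 and 43.3 at day 5 and 20059.8, 22136 and 4192 in the controls (-8.06 ± 0.62, adjusted p = 0.000522), 267-fold lower. F5, for coagulation factor V, had 243, 119.9 and 127 against 4520.4, 8445 and 1019 (-4.44 ± 0.77, adjusted p = 0.00638). Both had their lowest control value in control 3, still well above the day 5 libraries. Genes with close control values included Cd24a, which encodes a surface glycoprotein of immature and granulocytic cells (1020.4, 1821 and 1135 against 26308, 25783 and 17138, -4.14 ± 0.28, adjusted p = 0.000363), and the septin gene Septin1 (64.6, 86.6 and 65.9 against 1867, 2389 and 3199, -5.06 ± 0.24, adjusted p = 0.000235). The ubiquitin ligase gene Rnf144a (-4.13 ± 0.42), the growth arrest gene Gadd45a (-3.98 ± 0.28), the repressor gene Bcl11a (-3.64 ± 0.59), Tspan13 (-3.58 ± 0.47), Card6 (-3.37 ± 0.29) and Syne2 (-3.24 ± 0.25) were lower as well, with adjusted p-values from 0.0004 to 0.00524.

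Neutrophil genes were lower at day 5 than in controls 1 and 2, while control 3 held few of them. Camp, which encodes the antimicrobial peptide of secondary granules, had 1323, 3156 and 2597 at day 5 and 66231, 75982 and 12772 in the controls (-4.18 ± 0.73, adjusted p = 0.00664). Fcnb, for ficolin B, had 163, 115 and 156 against 1702, 2018 and 575 (-3.12 ± 0.48, adjusted p = 0.00432). Ly6g, the gene of the neutrophil surface marker, had 98.0, 908 and 309.9 against 14986, 18600.1 and 1131 (-4.49 ± 1.26, adjusted p = 0.0343). Control 3 was the lowest control for all 3, and for Ly6g it came near day 5 library 2. The call of Ly6g was lost without control 1, control 2, or day 5 library 1 or 3 (adjusted p = 0.0978 to 0.112), and without control 3 its difference was -5.78 (adjusted p = 0.00215).

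Of the 34 neutrophil genes tested, 9 were lower, against 20.4% of all genes, and 2, both stefin genes, were higher (median -2.37). The count of lower genes turned on control 3: without it 30 were lower and 2 higher (median -3.55), without control 1 or 2 there were 3 and 2 lower, and without day 5 library 1, 2 or 3 there were 3, 4 and 2. The edgeR and DESeq2 tests, which use the reads, called 16 and 27 lower. The list summed to 2.62%, 3.62% and 2.93% of the day 5 libraries against 18.5%, 20% and 2.35% of the controls and 1.11% to 1.64% of the untreated libraries.

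Of the 11 primary granule genes, 1 was higher and 3 were lower (median 0.02), against 16.4% and 20.4% of all genes. Without control 3 there were 1 and 5 (median -0.85). Without control 1, control 2, or day 5 library 2 or 3, 1 was lower. The higher one was the chaperone gene Calr (1.36 ± 0.17, adjusted p = 0.00229). Nkg7, shared with cytotoxic lymphocytes, had 46.3, 25.7 and 40.3 against 1009.9, 1326 and 1562 (-5.10 ± 0.28, adjusted p = 0.00026). Elane, for neutrophil elastase, had 982, 390.1 and 615 against 9425, 9362 and 1684 (-3.10 ± 0.73, adjusted p = 0.0185) and 4761 to 7733 untreated. It lost its call without control 1, control 2, or day 5 library 2 or 3 (adjusted p = 0.064 to 0.0703). The 34 progenitor and leukemia stem cell genes tested split into 3 higher and 19 lower (median -2.47). Of these genes, 7 passed the filter only through the controls and so could only be lower, and 1 only through day 5. Summed, the list took 0.2529%, 0.2068% and 0.1993% of the day 5 libraries, against 0.1938%, 0.2003% and 0.1778% of the controls. These ranges overlapped, so the summed level was not lower at day 5. Untreated libraries held 0.569% to 0.641%. The list had 8 lower genes without control 1 or control 2, with 27 genes tested, while 0 were higher without any one of the day 5 libraries. Most members with the smallest adjusted p are also genes of lymphoid cells. Tcf7, a transcription factor gene of T cells and progenitors, had 12.9, 24.7 and 12.8 at day 5, 696, 736 and 1419 in the controls and 4457 to 6939 untreated (-5.72 ± 0.39, adjusted p = 0.000372). Ikzf2 had 280.2, 328 and 180.4 in the controls and Eya1 143, 92.6 and 169, with 0 reads of either at day 5, so they were at least 87.3-fold and at least 44.7-fold lower, with a floor of 3 reads per day 5 library.

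Lymphoid genes were lower in the day 5 libraries and present in all 3 controls, and many, though not all, were at or near 0 reads at day 5. Jchain, which joins secreted antibodies of plasma cells, had 11.8, 16.2 and 0.984 at day 5 and 15120.3, 27057 and 162190.0 in the controls (-12.38 ± 1.13, adjusted p = 0.000792). Ms4a1, which encodes the B cell antigen CD20, had 1.08, 6.66 and 0 against 3285, 2981 and 11348 (-10.90 ± 0.86, adjusted p = 0.000542), and the complement receptor gene Cr2 1.08, 0 and 0 against 458, 578 and 4391 (-9.69 ± 0.90, adjusted p = 0.000829). Control 3 held the most of each. The T cell co-receptor gene Cd8b1 had 327, 339 and 466 in the controls and no read at day 5, at least 125-fold lower. Eomes, a transcription factor gene of cytotoxic cells, had 126, 182 and 291 and no read at day 5, at least 66.3-fold lower. The granzyme gene Gzma had 0, 0.952 and 0.984 against 385, 464 and 327 (-7.95 ± 0.38, adjusted p = 0.000235), and the 3 controls differed less from each other in these T and NK cell genes than in the B cell ones.

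All 23 B cell genes tested and all 27 T and NK cell genes tested were lower, with medians of -6.32 and -6.77. Of these genes, 6 and 18 passed the filter only through the controls, so they could only differ in this direction. Without control 3, 22 and 27 were lower. Under the filter of 3 libraries a gene present only in the controls is not tested once a control is left out. Without control 1 or 2, 14 and 13 of the 17 B cell genes then tested were lower, and without any one control 8 to 9 of the 9 T and NK genes then tested were. Some B cell genes kept a clear level at day 5, and Cd79b, a subunit gene of the B cell receptor, had 1390, 1908 and 1620 against 6261, 7565 and 42873 (-2.96 ± 0.71, adjusted p = 0.0204). Without control 3, its highest library, the difference was -2.08, and the call was lost without any one of the day 5 libraries (adjusted p = 0.0596 to 0.0718). The B cell list summed to 0.0125%, 0.0249% and 0.0151% of the day 5 libraries and 0.258%, 0.331% and 2.08% of the controls. Further large differences on this side were genes of B cell signalling or shared with lymphoid cells, namely Spib (-7.20 ± 0.78), Ets1 (-5.58 ± 0.59), Blnk (-5.36 ± 0.71), Rasgrp1 (-5.36 ± 0.86), Cmah (-4.90 ± 0.54), Cd22 (-4.62 ± 0.95) and Camk2d (-4.41 ± 0.40), with adjusted p-values up to 0.0116.

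Erythroid genes had the same direction. Car1, for a carbonic anhydrase of red cells, had 9.69, 9.52 and 0.984 at day 5 and 1261, 2057 and 2121 in the controls (-8.19 ± 0.69, adjusted p = 0.000642). The erythropoietin receptor gene Epor had 2.15, 0.952 and 0 against 32.8, 69.7 and 344 (-5.68 ± 0.92, adjusted p = 0.00503), and Alas2, the first enzyme of heme synthesis in red cells, 44.1, 139.9 and 18.7 against 1151, 1813 and 11848 (-5.86 ± 1.05, adjusted p = 0.00724). Control 3 held far more Epor and Alas2 than controls 1 and 2, and the day 5 libraries lay below all of them. Gata1, the transcription factor gene of red cells and platelets, had 0, 0.952 and 0 against 63.1, 143 and 767 (-7.26 ± 0.92, adjusted p = 0.00227). Slc4a1 (-6.64 ± 1.15), Car2 (-7.06 ± 1.0) and Rhag (-6.95 ± 0.93), which encode red cell membrane proteins and a carbonic anhydrase, were lower with adjusted p-values up to 0.00653. Of 25 erythroid genes tested, 8 of them only through the controls, 23 were lower (median -6.22) and 25 were without control 3. Without control 1 or 2, 15 and 13 of the 17 erythroid genes then tested were lower. The list summed to 0.0443%, 0.0425% and 0.0373% of the day 5 libraries against 0.126%, 0.175% and 1.15% of the controls. The globin features are near-identical copies and are listed at or near 0 in all 6 libraries, so they carry no information here.

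The upstream sequences of Epor and Alas2 are shown because both hold the letters AGATAA, which the red cell factor GATA1 is known to bind. Searches covered both strands of the 250 bases before the RefSeq start (GRCm38.p6), the letters do not overlap the palindrome searched in lysosome genes, and the capitals mark the match, here on the opposite strand. The stretches are chr9:21963577-21963826 (minus strand) for Epor and chrX:150547167-150547416 (plus strand) for Alas2.
Epor: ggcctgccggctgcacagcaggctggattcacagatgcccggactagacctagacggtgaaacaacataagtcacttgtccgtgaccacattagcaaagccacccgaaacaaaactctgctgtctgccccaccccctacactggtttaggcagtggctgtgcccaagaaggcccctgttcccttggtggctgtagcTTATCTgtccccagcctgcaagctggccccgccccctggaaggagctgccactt
Alas2: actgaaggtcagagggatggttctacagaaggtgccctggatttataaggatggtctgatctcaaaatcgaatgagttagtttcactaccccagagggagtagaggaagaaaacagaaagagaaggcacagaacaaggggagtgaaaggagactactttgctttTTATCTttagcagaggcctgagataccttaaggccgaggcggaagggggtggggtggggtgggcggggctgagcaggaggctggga
The letters were in 7 of 20 erythroid genes with a RefSeq promoter, against 11.4% of 27025 genes. No match in such a window says only that these letters are not in it.

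Several basophil and mast cell genes had no read at day 5 and were present in every control. Prss34, a protease gene of basophils, had 1732, 3659 and 1376 in the controls and no read in any day 5 library, at least 749-fold lower. Fcer1a, for the IgE receptor, had 857, 1560.0 and 375 (at least 309-fold lower), the mast cell chymase gene Cma1 155, 137 and 109 (at least 44.4-fold) and the tryptase gene Tpsb2 59.3, 62.9 and 72.7 (at least 21.6-fold), again with no read at day 5. Control 3 did not stand out in this group. Of 20 genes tested, 14 only through the controls, 19 were lower (median -6.86). Of 8 megakaryocyte and platelet genes tested, 6 of them only through the controls, 7 were lower (median -2.85), among them Itga2b (-5.21 ± 0.30, adjusted p = 0.00026) and Pf4 (-5.48 ± 0.61, adjusted p = 0.00147), and of 7 endothelial and stromal genes, 3 of them only through the controls, 5 were (median -1.75). Without control 3, with the filter met in 2 libraries, these 3 counts were 20 of 20 tested, 10 of 11 and 5 of 7. Without any one control under the filter of 3 libraries, fewer genes were tested. The counts were then 4 to 6 of 6, 0 to 1 of 2 and 1 to 2 of 4. The endothelial count was 2 to 3 of 7 without any one of the day 5 libraries.

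Antigen presentation separated the day 5 libraries from each other. H2-Aa, an MHC class II gene, had 516, 6932 and 4131 at day 5 and 10092, 12160.0 and 75643 in the controls, and did not pass the test (-3.10 ± 1.17, adjusted p = 0.082, and -2.17, adjusted p = 0.122, without control 3). The class II list summed to 0.0393% of day 5 library 1 and 0.227% and 0.181% of libraries 2 and 3, against 0.230%, 0.269% and 2.06% of the controls. Libraries 2 and 3 thus came close to controls 1 and 2, and library 1 was lower. H2-Eb2, a class II gene of B cells, did not follow this and had 1.08, 1.90 and 0 against 386, 406 and 2843 (-8.72 ± 0.86, adjusted p = 0.001). It passed the filter only through the controls and so could only be lower. Of 11 class II genes, 0 were higher and 4 lower (median -3.30), against 16.4% and 20.4% of all genes. Without control 3 there were 2 higher and 4 lower (median -2.41). The lower count was 2 without control 2 or day 5 library 2 and 1 without library 1 or 3. DESeq2 and limma's array weights each called 7 lower, and 1 fit of all 33 libraries called 9. Of 16 dendritic cell genes, 7 were lower (median -0.73) and 8 were without control 3, while without control 1, control 2, or day 5 library 1 or 3 there were 3. The chemokine receptor genes Ccr9 (-5.59 ± 0.79) and Ccr7 (-6.69 ± 1.06) and the plasmacytoid dendritic cell gene Siglech (-4.34 ± 0.85) were among them, with adjusted p-values up to 0.00982.

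Interferon response genes spread in the same way, with 0.0521%, 0.131% and 0.215% of the day 5 libraries and 0.237%, 0.178% and 0.255% of the controls. Of 35 tested, 5 were called lower (median -0.90), a smaller share than the 20.4% of all genes. Day 5 lay below all controls for 18 of the 35 and above for 0, against 29.2% and 25.5% of all genes. The count of genes called lower was 8 without control 3 and 3 without control 1 or control 2, and DESeq2 called 11. Rsad2, for the antiviral protein viperin, had 24.8, 246 and 169 against 2422, 1537 and 6306 (-4.80 ± 0.94, adjusted p = 0.00973), and Isg20, for an exonuclease, 90.4, 150.3 and 114 against 834, 951 and 2777 (-3.48 ± 0.48, adjusted p = 0.00307). Day 5 library 1 was lowest for both.

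**Figure D4:**
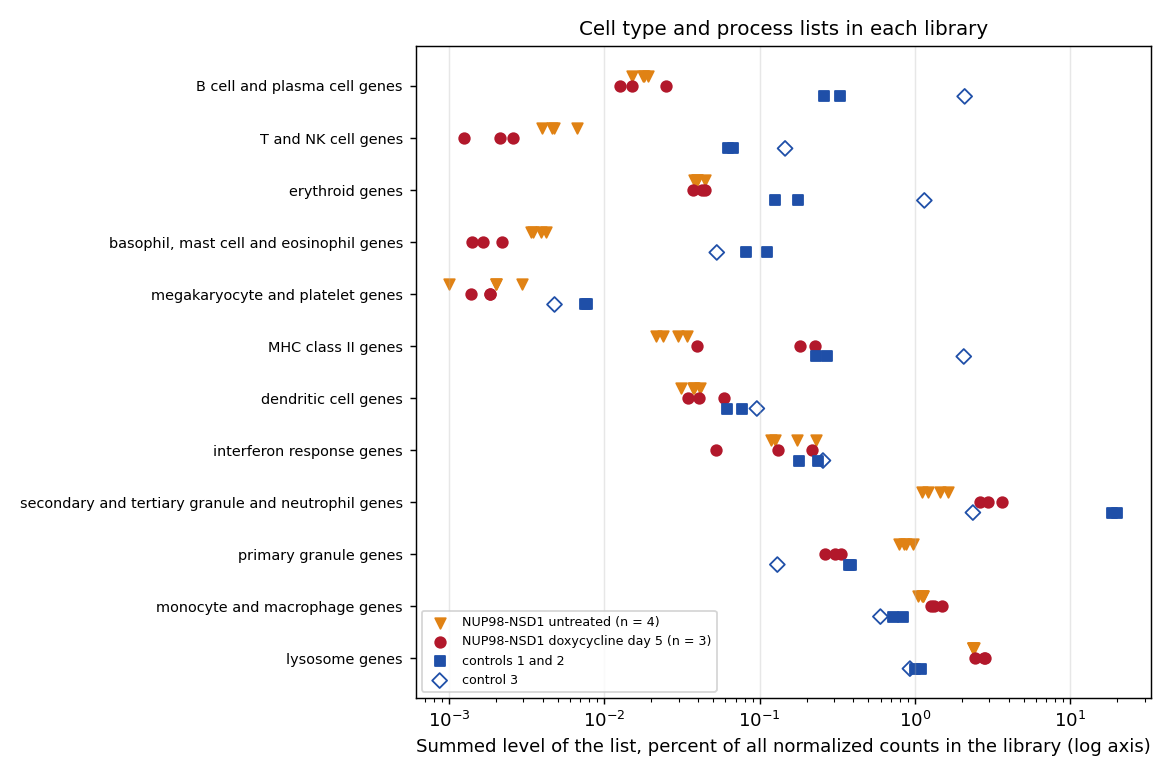
The x axis, on a log scale, gives the summed level of each gene list as a percent of all normalized counts in a library, with 1 point per library. Untreated NUP98-NSD1 is orange, day 5 red, controls 1 and 2 filled blue and control 3 open blue. Lymphoid, erythroid and basophil lists of day 5 lie below every control, lysosome and monocyte lists above, and neutrophil genes of control 3 fall beside those of day 5.

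Genes of growth and division differed little in size, and the counts were small. Of 40 DNA replication genes tested, 6 were higher and 1 lower (median 0.13). Gins2, for a subunit of the replicative helicase, had 648, 564 and 673 against 317, 323 and 206 (1.18 ± 0.21, adjusted p = 0.00765), and Dtl, for a ubiquitin ligase adaptor of S phase, 588, 489 and 536 against 977, 913 and 829 (-0.75 ± 0.13, adjusted p = 0.00683). Of 35 mitosis genes, 7 were higher and 1 lower (median 0.15). Bub1b, a spindle checkpoint gene, had 2973, 3049.7 and 3045 against 1509.8, 1367 and 1160.5 (1.18 ± 0.13, adjusted p = 0.0014), and the kinase gene Aurkb 2336, 2025 and 2296 against 1329, 1441 and 1150.1 (0.77 ± 0.13, adjusted p = 0.00625). Day 5 libraries lay above all controls for Gins2, Bub1b and Aurkb and below them for Dtl.

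Of 30 ribosome biogenesis genes, 7 were higher and 0 lower (median 0.24), among them Nop16 (1.33 ± 0.19, adjusted p = 0.00357) and the DNA repair gene Apex1 (1.0 ± 0.17, adjusted p = 0.00628). Without control 3 the higher and lower counts were 12 and 1 for replication, 9 and 7 for mitosis and 16 and 2 for ribosome biogenesis. The higher counts were 3, 2 and 3 without control 1 and 3, 3 and 3 without control 2. Without day 5 library 1 they were 3, 2 and 3, without library 3 they were 1, 2 and 2, and without library 2 ribosome biogenesis had 3. With all 6 libraries, the shares called higher in these lists were near the 16.4% of all genes, and the shares called lower were far below the 20.4% of all genes.

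Of 22 genes of the ATF4 and amino acid response, 2 were higher and 5 lower (median 0.14), against 16.4% and 20.4% of all genes. The asparagine synthetase gene Asns had 61.4, 35.2 and 42.3 at day 5 and 424, 537 and 776 in the controls (-3.61 ± 0.31, adjusted p = 0.000692). Ddit3, for the stress factor CHOP, had 90.4, 119 and 126 against 359, 391 and 427 (-1.81 ± 0.20, adjusted p = 0.00131), and Chac1 was lower too (-2.83 ± 0.42, adjusted p = 0.00372). Shmt2, for the mitochondrial enzyme of serine breakdown, went the other way with 2579, 1733 and 2166 against 611, 576 and 981 (1.60 ± 0.25, adjusted p = 0.0047). So members of 1 list stood on both sides, each with groups that did not overlap. The counts were 8 and 6 without control 3 and 4 and 3 after quantile normalization, and 3 were lower without control 2 or any one of the day 5 libraries. Of 25 immediate early and heat shock genes, 2 were higher and 6 lower (median -0.26), and 2 and 13 without control 3. The phosphatase gene Dusp2 (36.6, 64.7 and 43.3 against 367, 568 and 1490.2, -3.83 ± 0.53, adjusted p = 0.00311) and Btg2 (1580.2, 2261 and 1839.8 against 4109, 6091 and 5427, -1.46 ± 0.20, adjusted p = 0.00315) were lower, and the heat shock gene Hspa8 was higher (1.11 ± 0.18, adjusted p = 0.00548).

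The day 5 libraries were also compared with the day 5 libraries of the other 2 fusions, in 1 fit of those 9 libraries, to ask which genes differed by fusion at the same dose and day. The contrast was NUP98-NSD1 minus the mean of NUP98-DDX10 and NUP98-JARID1A, and the controls do not enter it. Of 11567 genes tested, 2042 (17.7%) were higher and 1891 (16.3%) lower. Leaving out 1 library moved these counts to 1089 and 1115 without NUP98-NSD1 library 2, 1058 and 979 without NUP98-NSD1 library 3, and 3227 and 3008 without NUP98-JARID1A library 1. Each gene called in the next paragraphs kept its call in every fit without 1 library that tested it. That was all 9 fits except for Hoxb2, Hoxb3 and Hoxb5, which passed the filter only through the NUP98-NSD1 libraries and so were tested in 6 of them.

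The Hoxb genes set NUP98-NSD1 apart. Hoxb2 and Hoxb5, given above, had 0 reads in all 6 libraries of the other fusions, and the differences were 8.68 ± 0.26 (adjusted p = 1.8e-08) and 7.04 ± 0.32 (adjusted p = 2.54e-07), which depend on the added 1 since the other libraries are at 0. Hoxb3 had 0, 0 and 0 in NUP98-DDX10 and 5.47, 8.04 and 5.57 in NUP98-JARID1A (5.03 ± 0.27, adjusted p = 9.67e-07), and Hoxb4 1.10, 0 and 0 and 24.3, 40.2 and 40.1 (4.82 ± 0.30, adjusted p = 2.52e-06). Every NUP98-NSD1 library exceeded every library of the other fusions for these genes. Hoxa9 did not pass the test (-0.01 ± 0.15, adjusted p = 0.948), with 563, 452 and 421 in NUP98-DDX10 and 176, 182 and 192 in NUP98-JARID1A on either side of the NUP98-NSD1 values. The cofactor gene Pbx3 was lower in NUP98-NSD1, at 181, 155 and 159 against 485, 521 and 544 and 1288, 969 and 1234 (-2.22 ± 0.12, adjusted p = 1.06e-06).

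Several of the genes far from the controls differed between the fusions. Cd163 had 279, 234 and 234 in NUP98-DDX10 and 514, 421 and 408 in NUP98-JARID1A, below the NUP98-NSD1 libraries given above (2.94 ± 0.24, adjusted p = 1.62e-05). Myof was higher in NUP98-NSD1 too (1.88 ± 0.15, adjusted p = 1.25e-05). Plbd1 had 625, 1026 and 942 and 8238, 10785 and 13372 (-6.02 ± 0.18, adjusted p = 1.8e-08), and F5 1280.1, 1056 and 1430.3 and 7132, 6244 and 7349 (-4.23 ± 0.21, adjusted p = 5.64e-07). NUP98-JARID1A thus stood within the range of the controls in both genes, a range whose lower end was control 3. NUP98-DDX10 had less, below every control for Plbd1 and just above control 3 for F5, and NUP98-NSD1 was lowest. Elane was lower in NUP98-NSD1 as well, against 6818, 5123 and 4717 and 7209, 9604 and 9096 (-3.47 ± 0.25, adjusted p = 6.26e-06), and so was the myeloperoxidase gene Mpo (4902, 2213 and 3412 against 32048, 21318 and 21678 and 11628, 19345 and 17147, -2.56 ± 0.25, adjusted p = 6.17e-05).

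Gpx3, for a secreted glutathione peroxidase, had 20.5, 7.61 and 10.8 in NUP98-NSD1, 5933, 6678 and 5473 in NUP98-DDX10 and 4885, 5837 and 7116 in NUP98-JARID1A (-8.84 ± 0.24, adjusted p = 1.79e-08). Alox5, for the enzyme that starts leukotriene synthesis, had 78.6, 26.6 and 15.7 against 2438, 3921 and 3556 and 10719, 13003 and 15669 (-7.61 ± 0.39, adjusted p = 7.11e-07). Both were under 100 in every NUP98-NSD1 library and far higher in each library of the other fusions. Ctnnd1, for a catenin, had 209.9, 90.4 and 86.6 against 1351, 1399 and 1310.1 and 2641, 2252 and 2289 (-3.92 ± 0.24, adjusted p = 2.29e-06), and Flot2, for a membrane scaffold protein, 479, 365 and 361 against 2405, 2654 and 2419.9 and 1972, 2952 and 3508 (-2.71 ± 0.17, adjusted p = 2.81e-06). On the higher side, Crip1 had 18054, 19609 and 18581 against 5382, 6326 and 5456 and 3885, 4249.8 and 4501 (1.94 ± 0.09, adjusted p = 5.32e-07). Adam19, a metalloprotease gene, had 2079, 1862 and 1984 against 641, 807 and 814 and 36.5, 76.4 and 135 (3.07 ± 0.31, adjusted p = 7.44e-05), and Gatm, for an enzyme of creatine synthesis, 1481, 1941 and 2394 against 399.6, 223 and 228 and 433, 354 and 281 (2.62 ± 0.23, adjusted p = 2.36e-05). The groups did not overlap for any of these genes. Eng, a co-receptor gene for TGF-beta, had 1128, 2506 and 2279 against 155, 124 and 116 and 406, 604 and 597 (2.82 ± 0.25, adjusted p = 2.69e-05), and its untreated NUP98-NSD1 libraries held 18272 to 20141. Alcam, an adhesion molecule gene (1.95 ± 0.14, adjusted p = 5.53e-06), and the interferon-inducible gene Ifi203 (1.97 ± 0.30, adjusted p = 0.000945) were the other large differences.

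**Figure D5:**
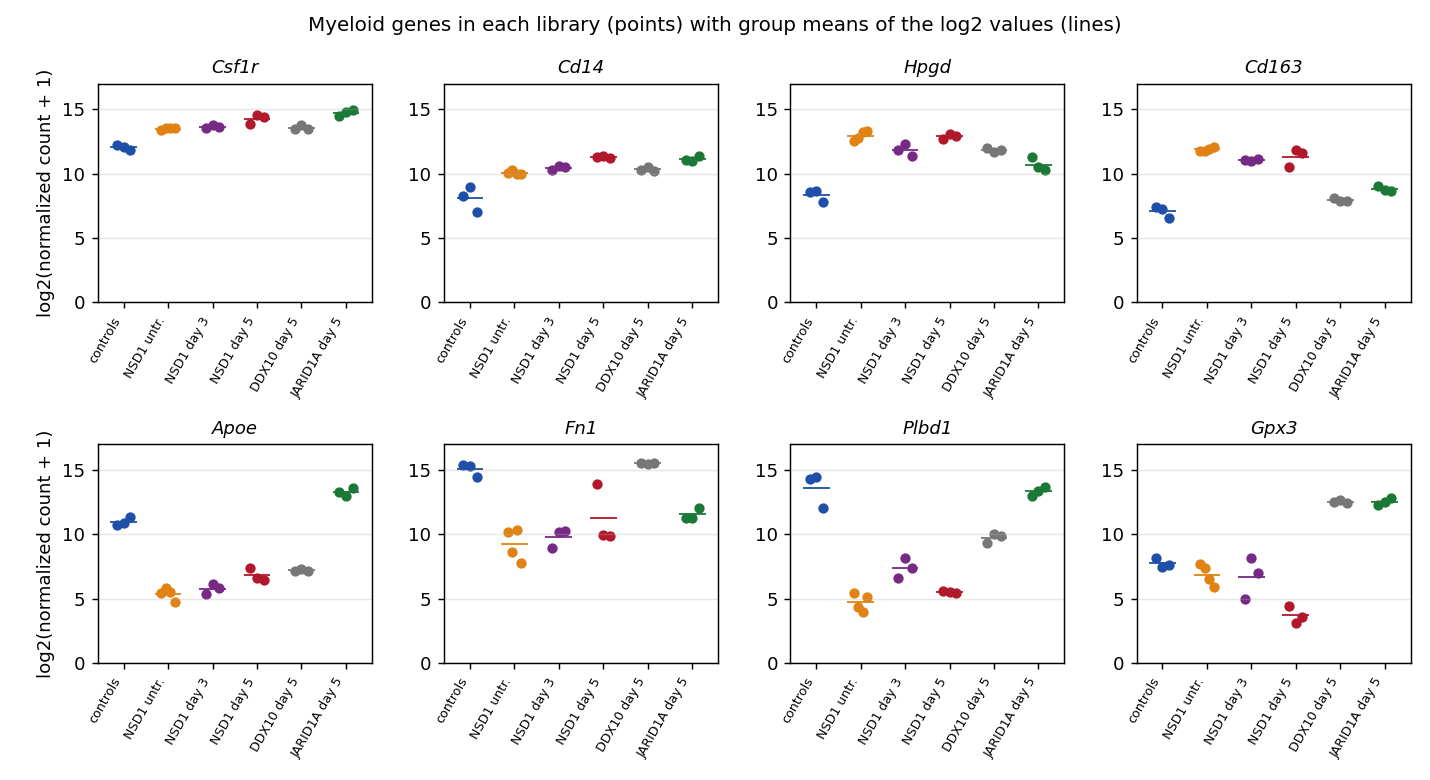
Each panel shows 1 gene on a log2(normalized count + 1) axis, with a point per library and a line at the group mean for controls, untreated, day 3 and day 5 NUP98-NSD1 and the day 5 libraries of NUP98-DDX10 and NUP98-JARID1A. Csf1r and Cd14 are higher at day 5 than in the controls, Hpgd lies above the controls both untreated and at day 5, and Plbd1 and Gpx3 are far lower in NUP98-NSD1 than in the other fusions.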

How the data were processed

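Per the labels' protocols, total RNA of sorted marrow was made into stranded poly-A libraries. The submitters' processing notes name STAR, SAMtools, featureCounts and DESeq2 with the builds GRCm38 and mm10 and no versions. The deposited values are a signal, here the authors' counts divided by 1 size factor per library; all values (100%) were whole multiples of 1 step within 0.01 reads, so reads were recovered. The table holds 24454 genes and 8 constructs; 24376 genes matched a symbol. Depth was 12043519 to 17697724 reads per library, and floors (3 reads) cover counting error only.

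limma 3.58.1 (R 4.3.3, mean-variance trend) was fitted to log2(value + 1) of the 6 libraries, because the controls varied more (median SD 0.342) than the day 5 libraries (0.16). The scale understates differences of low genes. A further fit used the 9 day 5 libraries of the 3 fusions. The fits were tested on simulated data. Alternatives were pseudocounts of 0.5 and 8, other filters, TMM and quantile normalization, a 33-library fit, array weights, a replicate block, edgeR 4.0.16, DESeq2 1.42.0 and leaving out each library. The setting without control 3 with a filter of 2 libraries was chosen after seeing the data.

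The groups, gene lists, motifs and rules were chosen with earlier results of these data known. Named genes were Cdk6, the fusion parts and constructs, the 15 largest differences each way and the 10 largest each way with control values within 1 log2 unit, given no overlap and a mean above the median. Up to 4 members per list by adjusted p, all Hox genes and the 8 largest each way between fusions completed the rule. A few genes it names are not reported here and are left out of the text and the plots of single genes, but they stay in the fits and the counts of lists. Ptprc, Cx3cr1, Adgre1, Ctsa, Ctsd, Cd63, Alas2, Epor, Cd79b, H2-Aa and the Hox genes compared between fusions were chosen after their values were seen. Replicate numbers did not pair the libraries.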

Additional observations from a re-analysis of the deposited data

Results flagged for a closer look

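The NUP98-NSD1 day 5 libraries differed from the mean of the other fusions at day 5 in 21 of the genes named, by limma's test of that difference. All are log2 differences. The Hox list genes were higher by 8.68 for Hoxb2, 7.04 for Hoxb5, 5.03 for Hoxb3 and 4.82 for Hoxb4, and Pbx3 had -2.22. The other higher genes were Adam19 (3.07), Cd163 (2.94), Eng (2.82), Gatm (2.62), Ifi203 (1.97), Alcam (1.95), Crip1 (1.94) and Myof (1.88). The lower genes were Gpx3 (-8.84), Alox5 (-7.61), Plbd1 (-6.02), F5 (-4.23), Ctnnd1 (-3.92), Elane (-3.47), Flot2 (-2.71) and Mpo (-2.56). These genes were picked for the size of the difference or from the Hox list, so their number is a description.

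Reads of a construct that belongs to another fusion appeared in the controls. The NUP98-JARID1A feature had 63 reads in control 2 and 14 in control 3, above the 3 reads that a count of 0 allows, 2 in control 1 and 0 in the day 5 libraries. Control 2 also held the most eGFP of the controls, 210.3 normalized counts.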

How the results depend on the processing

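Directions were checked only for the genes and constructs named in the control comparison. For each of these that was called, the direction held under every alternative that tested it. The counts did not: 1 fit of all 33 libraries called 3456 genes higher and 4015 lower than the controls, limma's array weights (which stopped before reaching their convergence tolerance) 4491 and 4873, and the added setting without control 3 gave 3301 and 4024. Leaving out 1 library gave 851 to 3266 higher and 1013 to 3093 lower. Between the fusions, array weights gave 4262 and 4113, and leaving out 1 library 1058 to 3227 and 979 to 3008. The cause was not tested. With a replicate block the counts were 1374 and 1939 against the controls and 2019 and 1877 between the fusions. Same-numbered day 5 and control libraries did not deviate together (correlations of 0.02, -0.01 and 0.02), so the numbers pair nothing. Genes that missed the test changed sign: Nup98 gave 0.13 with array weights and 0.076 without control 3 (range without 1 library -0.14 to 0.076), eGFP 0.16 after quantile normalization and -1.71 to 0.20 without 1 library, and Hoxa9 between the fusions -0.15 to 0.12. Of the 127 genes and constructs named in the control comparison, DESeq2 took the call from 1, edgeR from 2 and the block from 2, and the fits without 1 library lost 45 calls. The 3 libraries per group limit every count.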
